A study of Mus musculus with 6 samples.

Results

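The insulin-like growth factor (IGF) axis was followed through 10 genes in cultured adipocytes differentiated from C3H10T1/2, a mesenchymal cell line of the mouse with the capacity to form fat. The genes were the ligands Igf1 and Igf2, the receptors Igf1r and Igf2r, and 6 IGF binding proteins, Igfbp2 to Igfbp7. They were chosen by symbol, with earlier results of these data known. Each was read by 1 probe set, and they are 10 of 21996 genes that could be named on the arrays. Total RNA of 6 samples at 9 days of differentiation was hybridised to 1 Affymetrix mouse array each. In 3 biological replicates an adenovirus carried a short hairpin RNA (shRNA) against Zc3h10, which encodes an RNA-binding protein with CCCH zinc fingers, and in 3 a control adenovirus carried a scrambled hairpin (scramble). Both hairpins, 1 construct each, were driven by the U6 promoter and given at a multiplicity of infection of 50 for 72 h, so all 6 samples came from cells given virus.

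IGF1 and IGF2 are secreted peptides related to insulin. Both act through the tyrosine kinase receptor IGF1R, which signals through insulin receptor substrates to phosphoinositide 3-kinase and AKT, and through SHC to the MAP kinases. IGF2R is the cation-independent mannose 6-phosphate receptor, which takes IGF2 up for degradation and carries enzymes to the lysosome. The binding proteins hold IGFs in the extracellular space and release them when proteases cut them. In the fat lineage, IGF1 signalling is known for promoting the proliferation and differentiation of preadipocytes.

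In adipocytes given the Zc3h10 hairpin, the ligand gene Igf1 fell to 47.5% of its scramble level, while both receptor genes rose about as much in the other direction. Igf1r reached 202% and Igf2r 192% of the scramble level. The binding proteins split: Igfbp2 and Igfbp4 fell, and Igfbp5 and Igfbp7 rose. Of the 10 genes, 7 passed the threshold (limma, adjusted p under 0.05 over all 33079 probe sets), 4 higher and 3 lower, against 12.1% of all named genes, 5.51% higher and 6.60% lower. Of the 11512 named genes with a mean above the background limit defined below, 21.7% were called, and 9 of the 10 IGF axis genes exceeded that limit. No overlap between the 3 shRNA and the 3 scramble arrays was found for 8 of the 10 genes, against 31.9% of all named genes. The median size of the log2 change, whatever its sign, was 0.55 over the 10 genes and 0.14 over all named genes. Because the 10 genes were chosen with earlier results of these data known, these comparisons are descriptions and cannot show an excess.

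**Figure D1:**
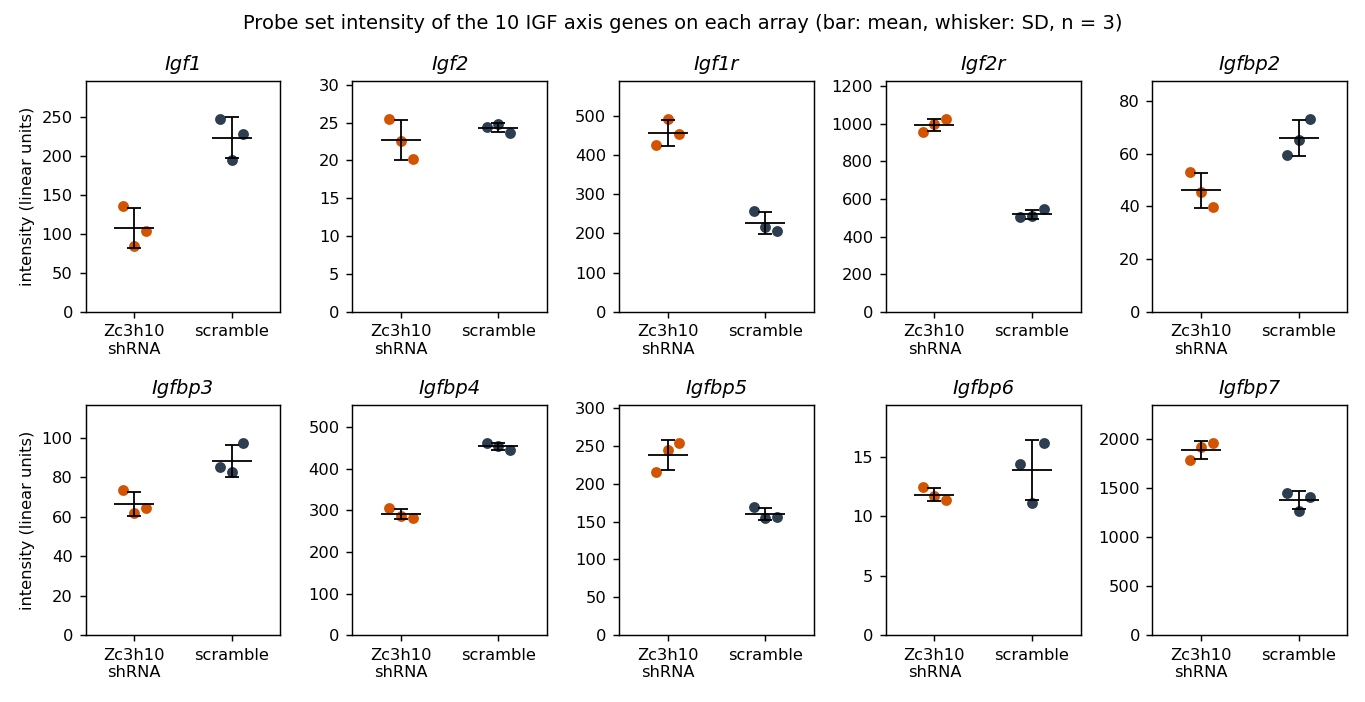
Intensity of the probe set of each of the 10 genes on every array (linear units, y axes from 0), Zc3h10 shRNA left and scramble right, with the mean and SD of 3 arrays. The groups overlap for Igf2 and Igfbp6 and do not overlap for the other 8 genes.

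Some facts of the arrays bear on these values. Median intensities were 15.6 to 16.1 on the 6 arrays, and the correlation r of 2 arrays over all probe sets (log2) was 0.992 to 0.994 inside a group and 0.985 to 0.988 across groups. Zc3h10 itself was at 25.2, 30.2 and 22.9 intensity units on the shRNA arrays and 25.9, 39.0 and 35.3 on the scramble arrays, a log2 change of −0.34 ± 0.17 (SE) that did not pass (limma, adjusted p = 0.301). For it, the exact permutation test (two-sided) gave p = 0.2, where 0.1 is the smallest p that 3 against 3 arrays allow. Of 9 measured markers of mature adipocytes, 8 had a mean above the background limit, the exception being Lep, and none was at 0. Those 8 all fell. The background limit used here is a log2 intensity of 4.37, or 20.7 units, below which the central 95% of 1379 genes of olfactory and vomeronasal receptors end; these receptors belong to sensory tissue. In RNA of whole cultures, fewer cells of a type and less RNA per cell cannot be told apart.

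Igf1, the ligand that most tissues make under growth hormone and that acts locally in fat, was at 136, 84.8 and 103 intensity units on Zc3h10 shRNA arrays 1 to 3 and at 247, 195 and 229 on scramble arrays 1 to 3. Every shRNA array lay below every scramble array, and the shRNA arrays were spread more widely on the log2 scale (SD 0.34) than the scramble arrays (SD 0.18). The log2 change was −1.07 ± 0.18 (SE, 3 arrays per group; limma, adjusted p = 0.00742), which leaves 47.5% of the level in scramble cells (95% confidence interval 35.9 to 62.9%). A fall at least as large was found for 1.00% of named genes. The call held without each single array in turn, with log2 changes of −1.25 to −0.91, but was lost when the t statistic was not moderated (adjusted p = 0.0862).

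Igf2, the fetal growth factor gene expressed from the paternal allele, was near background in both groups. It was at 25.4, 22.5 and 20.2 units in shRNA cells and at 24.5, 24.9 and 23.7 in scramble cells, and the groups overlapped. The log2 change was −0.11 ± 0.11 (adjusted p = 0.649), and the interval of the level, 78.5 to 110% of scramble, leaves room for a modest fall or a small rise.

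Igf1r, the signalling receptor of both ligands, was at 425, 491 and 454 units on the shRNA arrays and at 259, 217 and 205 on the scramble arrays. The lowest shRNA array lay well above the highest scramble array. The log2 change was 1.01 ± 0.11 (2.02-fold higher, limma, adjusted p = 0.00168), with an interval of 168 to 243% of the scramble level, and 0.468% of named genes rose by at least as much. Igf2r was at 956, 1001 and 1023 units on the shRNA arrays and at 502, 507 and 544 on the scramble arrays, with a spread within groups that was small beside the gap between them. Its log2 change was 0.94 ± 0.09 (1.92-fold higher, limma, adjusted p = 0.000881), and 0.614% of named genes rose by at least as much. Both receptors passed under all 17 alternative settings, with log2 changes of 0.92 to 1.11 for Igf1r and 0.90 to 0.98 for Igf2r.

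**Figure D2:**
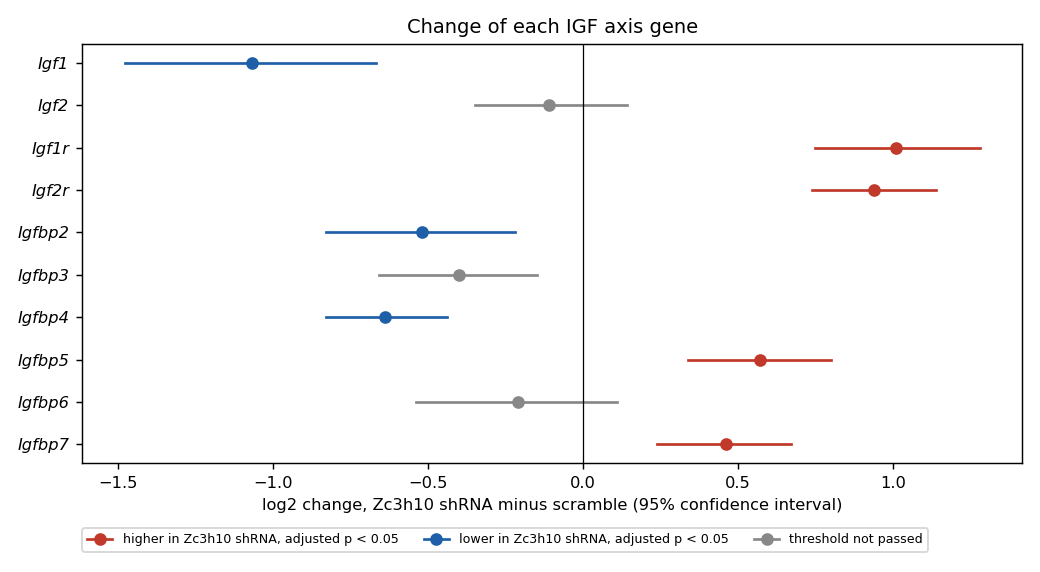
Log2 change of each of the 10 genes, Zc3h10 shRNA minus scramble, with its 95% confidence interval from the limma fit over 3 arrays per group. Igf1, Igfbp2 and Igfbp4 lie left of 0 and Igf1r, Igf2r, Igfbp5 and Igfbp7 right of 0 with an adjusted p under 0.05. Igf2, Igfbp3 and Igfbp6 did not pass, although the interval of Igfbp3 does not reach 0.

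Of 7 measured relatives of the ligands and receptors, 0 were called higher and 1, Insr, was called lower. That is 14.3%, against 12.1% of all named genes and 21.7% of those above background. The related receptor gene Insrr was under the background limit (log2 change 0.21 ± 0.11; limma, adjusted p = 0.330), so no level can be read for it. Insr, the insulin receptor and closest homologue of IGF1R, fell to 179.9 ± 5.49 units in shRNA cells, against 239 ± 15.0 units in scramble cells (SD, n = 3 each), a log2 change of −0.41 ± 0.09 (limma, adjusted p = 0.0256). That call was lost without scramble array 2 (adjusted p = 0.0914) or 3 (0.0945) and without shRNA array 1 (0.0711), 2 (0.0618) or 3 (0.0842). M6pr, the smaller mannose 6-phosphate receptor, which does not bind IGF2, was at 522 ± 21.2 units in shRNA cells and 545 ± 16.3 in scramble cells (log2 change −0.06 ± 0.09, adjusted p = 0.753). Within each array, log2 of Igf1r minus log2 of Insr stood 1.36 to 1.49 above the scramble mean on the shRNA arrays and −0.21 to 0.30 from it on the scramble arrays. For Igf2r minus M6pr the same values were 0.92 to 1.11 on the shRNA arrays and −0.08 to 0.06 on the scramble arrays. These pairs were chosen after the values were seen, so they are described without a test.

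The windows of 250 bases before the RefSeq start of the receptor genes that rose together are shown in lower case, with matches to GGGCGG (GC box) and CACGTG (E-box) on either strand in capitals.
Igf1r, GRCm38.p6, chr7:67952007-67952256, plus strand: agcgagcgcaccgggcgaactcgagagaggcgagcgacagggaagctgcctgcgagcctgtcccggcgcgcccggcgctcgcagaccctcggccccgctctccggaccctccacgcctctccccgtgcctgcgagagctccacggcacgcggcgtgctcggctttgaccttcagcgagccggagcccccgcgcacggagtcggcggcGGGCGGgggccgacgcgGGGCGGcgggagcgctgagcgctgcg
Igf2r, GRCm38.p6, chr17:12769707-12769956, minus strand: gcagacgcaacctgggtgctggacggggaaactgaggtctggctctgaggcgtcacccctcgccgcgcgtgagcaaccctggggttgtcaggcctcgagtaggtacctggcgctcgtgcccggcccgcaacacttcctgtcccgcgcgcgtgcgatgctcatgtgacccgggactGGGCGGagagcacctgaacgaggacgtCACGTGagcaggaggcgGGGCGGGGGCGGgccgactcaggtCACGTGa
The Igf1r window held 42 CG dinucleotides and 2 GC boxes, and 0.865% of 32851 RefSeq windows of the same length held as many CG dinucleotides. In the Igf2r window there were 27 CG dinucleotides, 3 GC boxes, of which 2 adjoin each other, and 2 E-boxes. Among all windows, 32.7% held GGGCGG and 6.02% held CACGTG, and neither receptor window held TATAAA (12.4% of windows) or CCAAT (33.8%). These matches describe letters, not binding. No window is shown for Igf1, because the start listed in the RefSeq promoter table lies inside the RefSeq span of the gene.

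The noncoding RNA Airn, whose RefSeq span overlaps that of Igf2r and which silences the paternal Igf2r allele in mouse, was at 31.8 ± 1.61 units in shRNA cells and 29.0 ± 2.14 in scramble cells (log2 change 0.13 ± 0.10, adjusted p = 0.502). No difference in Airn was detectable with 3 arrays per group.

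Among the binding proteins, Igfbp4 had the largest fall. Igfbp4, an inhibitor of IGF action that the protease PAPP-A cuts, was at 306, 287 and 282 units on the shRNA arrays and at 461, 454 and 445 on the scramble arrays. The replicates lay close together in both groups, and the log2 change was −0.64 ± 0.08 (64.3% of scramble, interval 56.2 to 73.6%; limma, adjusted p = 0.00307), past the threshold under all 17 alternatives. Igfbp2, an IGF carrier made by adipocytes among other cells, was at 53.0, 45.5 and 39.7 units on the shRNA arrays and at 59.6, 65.3 and 73.0 on the scramble arrays. Its log2 change was −0.52 ± 0.13 (adjusted p = 0.0439), and the call was lost without scramble array 1 (adjusted p = 0.0559), 2 (0.122) or 3 (0.136) and without shRNA array 2 (0.118) or 3 (0.134).

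Igfbp3, the main carrier of IGFs in blood, was at 73.6, 61.9 and 64.6 units on the shRNA arrays and at 85.1, 82.5 and 97.3 on the scramble arrays. The groups did not overlap, yet its log2 change of −0.40 ± 0.11 missed the threshold (adjusted p = 0.0570). It passed without shRNA array 1 (adjusted p = 0.0485) and under 5 other settings, such as an intensity trend in the prior (0.0259). Igfbp6, which prefers IGF2, was at 12.5, 11.7 and 11.3 units in shRNA cells and at 14.4, 11.1 and 16.2 in scramble cells, all under the background limit, so no level can be read for it.

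Igfbp5, which binds extracellular matrix and is abundant in connective tissue cells, was at 216, 244 and 253 units on the shRNA arrays and at 169, 155 and 156 on the scramble arrays. Its log2 change was 0.57 ± 0.10 (1.48-fold higher, limma, adjusted p = 0.00913), past the threshold under all 17 alternatives, with 0.0431 as the largest adjusted p. Igfbp7, a matrix protein with low affinity for IGFs, was at 1787, 1918 and 1960 units on the shRNA arrays and at 1448, 1272 and 1411 on the scramble arrays. Every shRNA array exceeded every scramble array. Its log2 change was 0.46 ± 0.09 (1.37-fold higher, adjusted p = 0.0196), and the call was lost without scramble array 2 (adjusted p = 0.0774) or 3 (0.0571) and without shRNA array 2 (0.0683) or 3 (0.0777).

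Igfbp2 and Igfbp5, which moved in opposite directions, are neighbouring genes on mouse chromosome 1 and are read from opposite strands. Within each array, log2 of Igfbp5 minus log2 of Igfbp2 stood 0.74, 1.14 and 1.39 above the scramble mean on the shRNA arrays, against 0.22, −0.03 and −0.19 on the scramble arrays. The difference between their log2 changes was 1.09, given as a description because the pair was chosen after its values were seen. Igfbp1 and Igfbp3 are also neighbours. Igfbp1, made mainly by liver, was under the background limit at 12.5, 11.9 and 11.6 units in shRNA cells and at 13.2, 15.1 and 14.4 in scramble cells (adjusted p = 0.167). The windows of the first neighbouring pair are given for comparison, marked in the same way.
Igfbp2, GRCm38.p6, chr1:72824230-72824479, plus strand: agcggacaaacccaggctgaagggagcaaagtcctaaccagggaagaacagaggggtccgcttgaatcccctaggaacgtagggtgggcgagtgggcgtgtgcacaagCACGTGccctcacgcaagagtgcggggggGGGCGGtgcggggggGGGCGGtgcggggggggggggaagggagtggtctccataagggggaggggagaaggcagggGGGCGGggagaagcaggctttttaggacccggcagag
Igfbp5, GRCm38.p6, chr1:72874866-72875115, minus strand: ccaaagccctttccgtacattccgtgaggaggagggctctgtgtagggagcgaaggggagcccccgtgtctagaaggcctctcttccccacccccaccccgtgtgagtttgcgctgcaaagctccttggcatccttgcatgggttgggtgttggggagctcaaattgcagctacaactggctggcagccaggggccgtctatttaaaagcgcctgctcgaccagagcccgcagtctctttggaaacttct
The Igfbp2 window held 3 GC boxes, 1 E-box and 14 CG dinucleotides, while the Igfbp5 window held 10 CG dinucleotides and no match to any of the 4 motifs searched.

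By the smallest root mean square difference of log2 values over the 6 arrays, each gene set relative to its scramble mean, the genes most like Igf1r among 16778 were Nr1d2 (0.042), E2f6 (0.056) and Atp11a (0.074). Nr1d2 encodes the nuclear receptor REV-ERB beta, and E2f6 a repressor of the E2F family. The genes most like Igf1 were H4c1 (0.070), Lacc1 (0.098) and Col15a1 (0.106), of which H4c1 encodes a core histone with near-identical copies and Col15a1 a basement membrane collagen. With 6 arrays in 2 groups, this likeness reflects mainly the size of the group difference.

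Other genes of the pathway were taken from 6 role lists. These lists too were chosen with earlier results of these data known, so their shares are descriptions. Of 62 listed genes, 53 were measured, and 17 of them (32.1%) changed, 7 higher and 10 lower, against 12.1% of all named genes and 21.7% of those above the background limit. The 53 genes had a median log2 change of 0.00 against 0.01 over all named genes. The count was 12 without scramble array 1, 6 without scramble array 2, 7 without scramble array 3, 9 without shRNA array 1, 6 without shRNA array 2 and 8 without shRNA array 3. Adam9, Adam12, Pappa, Timp1 and Lrp1 passed without each array in turn.

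**Figure D3:**
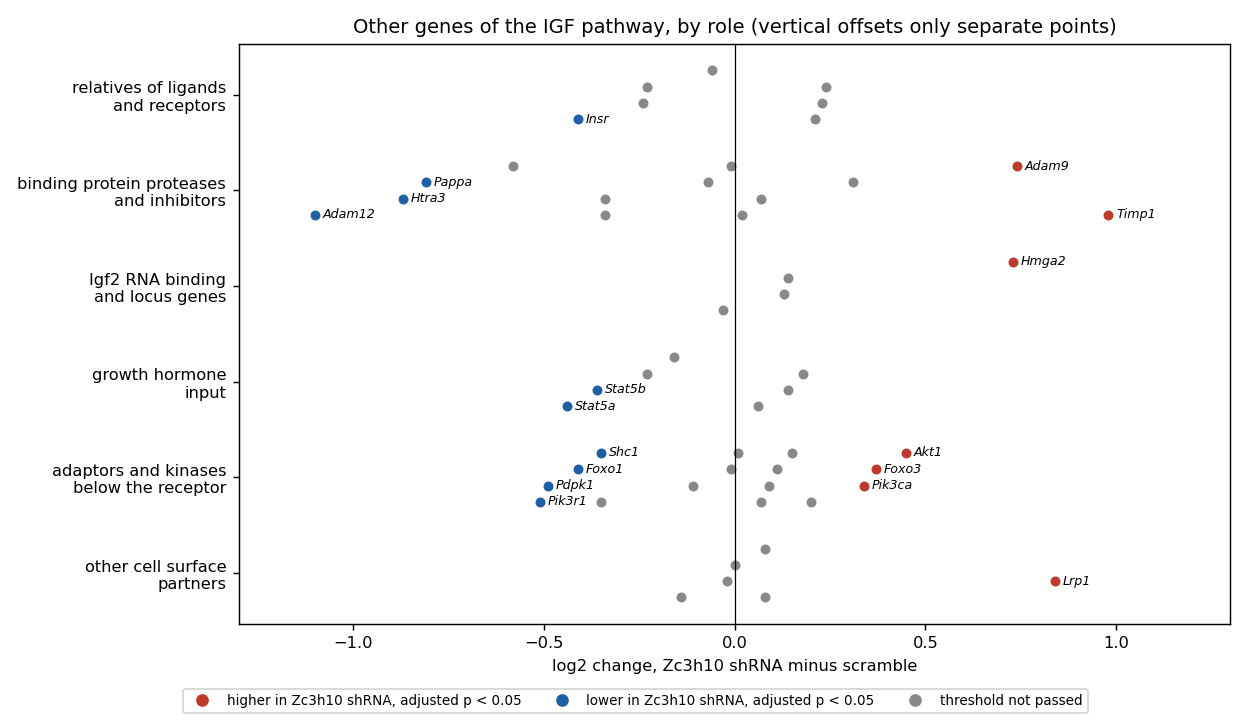
Log2 change, Zc3h10 shRNA minus scramble, of 53 other genes of the pathway in 6 role lists, with the genes past an adjusted p of 0.05 named. The changes run from −1.10 (Adam12) to 0.98 (Timp1), and each of the 2 longest lists, proteases and adaptors, holds calls in both directions.

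Proteases that cut binding proteins and their inhibitors held some of the largest changes on these lists, with 2 of 13 genes higher and 3 lower (38.5% called, against 12.1% of all named genes and 21.7% of those above background). Adam12, a metalloprotease that cuts IGFBP3 and IGFBP5 in human, was at 185, 182 and 182 units on the shRNA arrays and at 337, 430 and 415 on the scramble arrays (log2 change −1.10 ± 0.11; limma, adjusted p = 0.00117). Pappa, the gene of the IGFBP4 protease PAPP-A, was at 75.4, 56.3 and 63.0 units on the shRNA arrays and at 119.7, 104 and 117 on the scramble arrays (log2 change −0.81 ± 0.13, adjusted p = 0.00581, and 0.0578 by the unmoderated t statistic). The gene of this protease and that of its substrate, Igfbp4, were thus both lower. Htra3, a secreted serine protease, was at −0.87 ± 0.16 (adjusted p = 0.0120), lost without shRNA array 3 (0.0527) and by the unmoderated t statistic (0.09999). Timp1, an inhibitor of metalloproteases, was at 227, 181 and 193 units on the shRNA arrays and at 115, 94.5 and 96.4 on the scramble arrays (log2 change 0.98 ± 0.12, adjusted p = 0.00254). Adam9, a membrane metalloprotease, rose too (0.74 ± 0.09, adjusted p = 0.00187). Pappa2 (−0.58 ± 0.18, adjusted p = 0.0942) and the PAPP-A inhibitor genes Stc1 (0.07 ± 0.09) and Stc2 (−0.01 ± 0.16) did not pass.

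Below the receptor, 3 of 16 adaptor and kinase genes rose and 4 fell, which is 43.8% called against the same 12.1% and 21.7%. Pik3r1, a regulatory subunit of phosphoinositide 3-kinase, was at 825 ± 30.8 units in shRNA cells and 1179.6 ± 96.1 in scramble cells (log2 change −0.51 ± 0.10, adjusted p = 0.0134), and its call was lost without scramble array 2 (0.0590) or 3 (0.0556) and without shRNA array 2 (0.0515). Pdpk1, the kinase that activates AKT, was at −0.49 ± 0.09 (adjusted p = 0.0144), lost without scramble array 2 (0.0621) or shRNA array 2 (0.0540). Foxo1 and Foxo3, transcription factors that AKT holds in the cytoplasm, went opposite ways, at −0.41 ± 0.09 (adjusted p = 0.0283) and 0.37 ± 0.09 (0.0404). Foxo1 was lost without any one array except scramble array 1, and Foxo3 without any one array, with adjusted p up to 0.106 and 0.131. With all probe sets of Foxo1 averaged, its log2 change was −0.18 (adjusted p = 0.309). The catalytic subunit gene Pik3ca (0.34 ± 0.09, adjusted p = 0.0459), the adaptor gene Shc1 (−0.35 ± 0.09, 0.0452) and Akt1 (0.45 ± 0.12, 0.0490) passed narrowly. Pik3ca and Shc1 were lost without any one array (adjusted p up to 0.149 and 0.147), and Akt1 without any one except shRNA array 1 (up to 0.159). The log2 change of Akt2 was −0.35 ± 0.09 (adjusted p = 0.0511). The docking protein genes Irs1 (0.15 ± 0.10) and Irs2 (0.11 ± 0.13) and the imprinted adaptor gene Grb10 (0.20 ± 0.11) did not pass.

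Of 7 genes listed for the growth hormone signal to Igf1, 2 fell (28.6%), a share near the 21.7% called among genes above background. Stat5a and Stat5b, the transcription factors of that signal, were at −0.44 ± 0.11 (adjusted p = 0.0475) and −0.36 ± 0.09 (0.0471). Stat5a was lost without scramble array 2 or 3 or shRNA array 1 or 2 (adjusted p up to 0.154), Stat5b without any one array (up to 0.156), and both missed the threshold under quantile normalization (0.0515 and 0.0638). The growth hormone receptor gene Ghr was at −0.16 ± 0.10 (adjusted p = 0.452). Of 6 other cell surface partners, only 1 was called (16.7%, against 12.1% of all named genes and 21.7% of those above background). This was Lrp1, an endocytic receptor that also binds IGFBP3. It rose, at 1831, 2036 and 1892 units on the shRNA arrays and 1157, 956 and 1107 on the scramble arrays (log2 change 0.84 ± 0.10, adjusted p = 0.00237). Another list, drawn up for Igf2 RNA binding and the Igf2 locus, had 4 measured genes. That name does not describe every member, since Airn overlaps Igf2r rather than Igf2 and Hmga2 encodes a chromatin protein of growing mesenchymal cells. Only Hmga2 was called. It rose (0.73 ± 0.18, adjusted p = 0.0383), but the call was lost without any one array except scramble array 1 (adjusted p up to 0.110). Igfals, the gene of the subunit that stabilises IGF complexes in blood, was under the background limit (adjusted p = 0.325).

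Some markers of cell state also differed between the groups. Counts of called markers stand against the 12.1% of all named genes, and 21.7% of those above background, that were called. The marker lists were also chosen with earlier results of these data known. Of 9 measured mature adipocyte markers 8 fell and 0 rose, with summed intensities of 8246 to 9288 on the shRNA arrays and 15549 to 17264 on the scramble arrays. Cebpa, a transcription factor of fat cell differentiation, was at −1.71 ± 0.14 and the lipid droplet gene Plin1 at −1.16 ± 0.09. All 4 measured proliferation markers rose, with sums of 762 to 906 on the shRNA arrays and 441 to 538 on the scramble arrays. Of 5 smooth muscle and myofibroblast markers, 3 rose, with sums of 3439 to 3751 on the shRNA arrays and 1716 to 2176 on the scramble arrays. Of 9 progenitor and fibroblast markers, 3 rose and Pdgfra fell, with a median log2 change of −0.03. Their sums overlapped, at 1965 to 2072 on the shRNA arrays and 2011 to 2167 on the scramble arrays. Such sums weigh bright probe sets most. Pdgfra alone averaged 867 units in shRNA cells and 1364 in scramble cells, so the overlap does not mean that the other markers were unchanged. Of 4 osteoblast markers 3 fell, with sums of 93.7 to 106 on the shRNA arrays and 167 to 180.1 on the scramble arrays, and of 5 skeletal muscle markers Des fell. No macrophage, endothelial or chondrocyte marker passed. All 4 endothelial, 3 of 5 macrophage, 3 of 5 skeletal muscle, 2 of 4 osteoblast and 4 of 9 progenitor markers had means within background. So did 1 of 4 chondrocyte and 1 of 5 smooth muscle markers. The called markers Bglap (lower) and Fap (higher) were among those with a mean over the 6 arrays within background. The part of these cell states in the changes of the IGF genes was not tested.

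**Figure D4:**
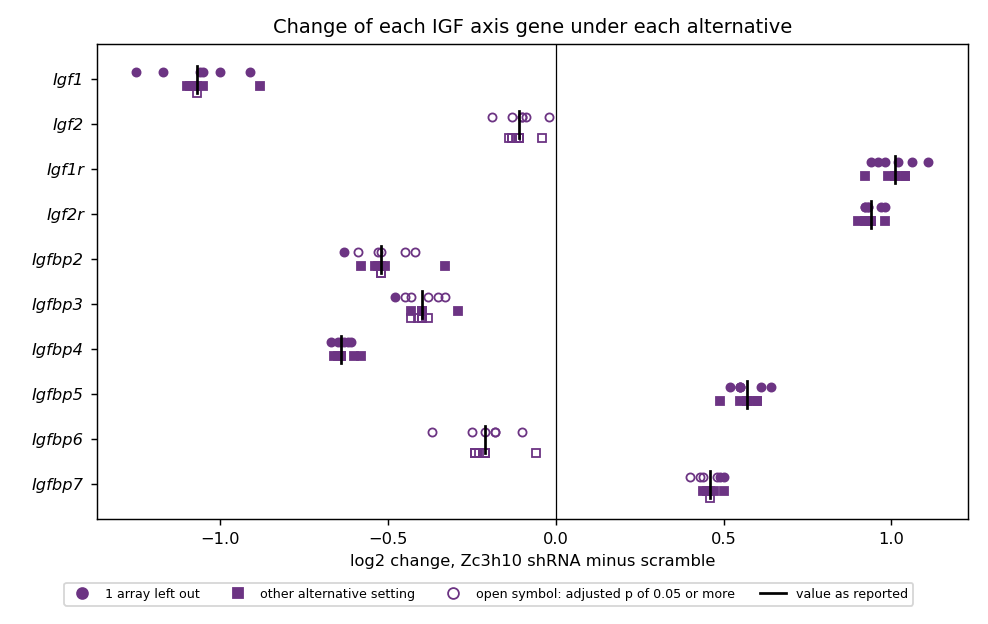
Log2 change of each of the 10 genes, Zc3h10 shRNA minus scramble, with 1 array left out (circles) and under other settings (squares), filled where the adjusted p was under 0.05 and open where it was not. No gene changed sign, and Igf1r, Igf2r, Igfbp4 and Igfbp5 have only filled symbols.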

How the data were processed

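RNA levels were read on 6 single-colour Affymetrix arrays, 3 per group, with groups and replicate numbers taken from the sample titles. The deposited table holds 1 intensity (linear) per probe set and array. Its columns had nearly equal medians (15.6 to 16.1), from which a scaling across arrays by the authors was inferred. Per the submitters' processing notes, Partek 6.6 and Affymetrix Expression Console were used. How background was removed and arrays were normalized is, in the sources here, not given, and bears most on dim probe sets. The number of arrays limits the precision. The labels call the replicates biological without naming separate cultures or days, so p-values measure only the spread between these samples, which may be technical.

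Log2 was taken with no offset, and all 33079 probe sets were fitted by lmFit and eBayes of limma 3.58.1 (R 4.3.3, two-sided, Zc3h10 shRNA minus scramble) with Benjamini-Hochberg adjustment over all. The threshold of 5% is that of the series' design text. Values of SE and 95% intervals come from the fit. Names came from the platform annotation, 23043 probe sets having 1 symbol, 1740 several and 8296 none, and the probe set with the highest mean stood for a gene. Levels of different probe sets are not comparable. Sequences are from RefSeq (GRCm38.p6), and all 10 genes matched by symbol. The sources used here name no build for the arrays, so the only coordinates printed are those of the RefSeq promoter windows.

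The 10 genes and all lists were chosen with earlier results of these data known. Named genes were the 10, Zc3h10, Insr, Igfbp1, Igfals, and up to 4 called genes per role list and 3 per marker list with the smallest p, with the 3 genes nearest to Igf1r and to Igf1 by the likeness measure. Airn, M6pr, Insrr, Htra3, Pappa2, Stc1, Stc2, Pik3ca, Shc1, Akt1, Akt2, Irs1, Irs2, Grb10, Ghr and Lep were named after their values were seen. Listed genes without a single-symbol probe set, 9 in all, were not analysed here. The replicate numbers are not known to pair the arrays. Deviations from group means of same-numbered arrays correlated at r of 0.0845, −0.00464 and 0.0425. Those of differently numbered arrays correlated at r of −0.0925 to 0.0613. Such small values over all probe sets cannot show whether the arrays were paired.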

Additional observations from a re-analysis of the deposited data

How the results depend on the processing

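Of 490 recomputed values for 29 single genes, 393 kept their direction and their side of the threshold, 91 kept their direction but were no longer called, 6 were newly called (all of Igfbp3) and none reversed. With 1 array left out, 5 to 8 of the 10 IGF axis genes, 6 to 12 of the 53 other pathway genes and 1807 to 2578 probe sets were called, and the log2 change of Zc3h10 was −0.52 to −0.22 without a call. With the replicate number as a block, 5 of the 10 IGF axis genes, 9 pathway genes and 2455 probe sets were called, and Igfbp2 (adjusted p = 0.105) and Igfbp7 (0.0549) were lost. The numbers are not known to pair the samples. An ordinary t statistic, added after the data were seen, called 5 of the 10 (without Igf1 and Igfbp2), 9 pathway genes (without Pappa, Htra3, Foxo1, Foxo3, Akt1, Stat5a, Stat5b and Hmga2) and 1972 probe sets. Under quantile, median and cyclic loess scaling, an offset of 32, filters on dim probe sets, an intensity trend and array weights, 7 or 8 of the 10 were called, Igfbp3 being the only difference. Each of the 10 genes has 1 probe set, so no other probe set could be tried, and Igfbp6 was left out by the filter at the median. Signal over background limits Igf2, Igfbp6, Igfbp1 and Igfals, and the background correction could not be varied.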
